A study of Mus musculus with 9 samples.

Results

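The genes of the proteasome were described in RAW264.7 cells, a mouse macrophage line. They were the protein-coding genes of GENCODE M21 whose symbol begins with Psma, Psmb, Psmc, Psmd, Psme, Psmf or Psmg and a digit. This rule found 50 genes, all of them present among the 28137 rows of the deposited table, of which 16894 were protein-coding. Cells were transfected with 60 nM siRNA for 6 h, left for 12 h, and treated with 100 ng/ml lipopolysaccharide (LPS, a bacterial cell wall component that drives macrophages to an inflammatory state), and RNA was taken after 24 h of polarization. The 9 libraries fell into 3 groups of 3: a control siRNA (NC), siRNA against SFRP2, and siRNA against RAB6A, a Rab GTPase of the Golgi. All groups received LPS, so that neither resting cells nor cells without transfection were compared. The study's methods also name interferon-gamma, an inducer of the immunoproteasome, which the labels do not, and the sample titles end in 6H, so that the exact stimulus behind the levels below is uncertain. The dose and times given here are those of the labels. The study's methods give another siRNA dose and another time after transfection, and name no RAB6A siRNA. All libraries came from a single cell line, and the labels do not say whether the 3 libraries of a group were separate cultures, so the p-values measure only the spread between these libraries.

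The 26S proteasome degrades proteins tagged with ubiquitin. Its 20S core is a barrel of stacked rings of alpha and beta subunits, and the beta subunits Psmb5, Psmb6 and Psmb7 carry the proteolytic sites. After interferon or LPS, immune cells replace these by Psmb8, Psmb9 and Psmb10 to form the immunoproteasome, which favours peptides that fit MHC class I molecules. The 19S regulatory particle caps the core and has a base, with a ring of AAA ATPases that unfold the substrate, and a lid, which removes ubiquitin. Other caps are PA28 alpha and beta (Psme1 and Psme2, induced by interferon), PA28 gamma (Psme3, nuclear) and PA200 (Psme4). Psmg1 to Psmg4 and Psmd5, Psmd9 and Psmd10 are assembly chaperones, and Psmf1 (PI31) is an inhibitor in vitro. Psmc3ip, which matches the rule by its symbol, encodes a protein of meiotic recombination and is no proteasome subunit.

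The libraries held 32758729 to 47149258 reads, as recovered from the steps of the FPKM values (fragments scaled to exon length and library size). The 8 macrophage markers were present in every library, and their summed level was 4516 to 4982 FPKM in NC, 3998 to 4323 in SFRP2 siRNA and 3945 to 4097 in RAB6A siRNA. Lists of T cell, B cell, fibroblast, endothelial and epithelial markers summed to at most 3.32 FPKM in any library. Sfrp2 was near the detection limit in all groups. It had 6 reads in NC, 10 in the libraries labelled SFRP2 siRNA and 11 in RAB6A siRNA. It was thus not lower under the SFRP2 label, but its level was too low in NC to check a knockdown. Rab6a was lower in RAB6A siRNA than in NC (21.2, 20.7 and 20.4 against 24.3, 27.3 and 25.5 FPKM, log2 fold change -0.31 ± 0.06, adjusted p = 0.0024). This was 0.808 times its NC level, and 36.5% of all genes tested were called lower in the same comparison. The FPKM of all genes summed to 361817 to 372307 in NC, 362869 to 373756 in SFRP2 siRNA and 399883 to 410877 in RAB6A siRNA.

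Promoter windows were printed for 3 genes on which the results below turn: Psmb6, which rose with RAB6A siRNA, Psme3, which fell most, and Psmd4, which had the smallest p in the libraries labelled SFRP2 siRNA. Each window holds the 250 bases before the RefSeq start of transcription (GRCm38.p6), 5′ to 3′ on the gene's strand, and overlaps no exon of GENCODE M21. Capitals mark a motif of a factor family known at proteasome or immune genes. In Psmb6 (chr11:70525107-70525356, plus strand) they mark a match to the antioxidant response element TGACNNNGC, in Psme3 (chr11:101315963-101316212, plus strand) the E-box CACGTG, and in Psmd4 (chr3:95042615-95042864, minus strand) a match to the interferon-stimulated response element, a pair of GAAA 2 bases apart, on the opposite strand.
Psmb6: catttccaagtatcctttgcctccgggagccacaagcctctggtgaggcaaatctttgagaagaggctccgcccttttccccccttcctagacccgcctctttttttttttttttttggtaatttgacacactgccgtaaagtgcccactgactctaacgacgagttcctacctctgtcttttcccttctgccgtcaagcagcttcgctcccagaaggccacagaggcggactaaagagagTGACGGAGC
Psme3: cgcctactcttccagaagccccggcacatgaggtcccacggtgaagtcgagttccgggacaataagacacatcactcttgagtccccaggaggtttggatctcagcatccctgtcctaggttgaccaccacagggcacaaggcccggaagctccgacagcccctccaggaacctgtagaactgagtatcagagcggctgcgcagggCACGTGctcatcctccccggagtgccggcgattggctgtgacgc
Psmd4: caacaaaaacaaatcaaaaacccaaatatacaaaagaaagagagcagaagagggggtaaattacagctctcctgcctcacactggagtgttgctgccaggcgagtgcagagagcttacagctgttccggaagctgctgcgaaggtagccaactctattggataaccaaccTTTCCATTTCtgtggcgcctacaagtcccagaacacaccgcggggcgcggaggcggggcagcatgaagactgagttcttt
The matches begin 9, 44 and 80 bases before the start. On either strand, TGACNNNGC stood before 5 of the 42 members with a window (11.9%) and 11.5% of all 27025 genes with a window. The antioxidant element was found in Psmb5, Psmb6, Psmc6, Psmd9 and Psmd12. CACGTG stood before 4 members (9.52%, against 6.86% of all genes), and the interferon-stimulated response element before 3 (7.14%, against 3.46%). The interferon-gamma activated site TTCNNNGAA stood before 2 members (4.76%, against 8.13%), of which Psmb8, an immunoproteasome subunit, is one. CCAAT stood before 15 members (35.7%, against 37.5%). Psmd9 held TGACNNNGC, CACGTG and the interferon-stimulated response element. These matches describe letters in a window and are no binding sites.

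In NC, 6 members exceeded 100 FPKM, 35 lay between 10 and 100, and 9 were below 10. Their median was 36.6 FPKM, against 5.04 FPKM for the genes tested in RAB6A siRNA against NC. The highest were Psmd8, a lid subunit (193 ± 6.12 FPKM), Psmc1, a base ATPase (182 ± 20.3 FPKM), and Psma6, an alpha ring subunit (153 ± 2.68 FPKM). The gap between Psmd8 and Psmc1 was smaller than the SD of Psmc1, and 1 NC library had more Psmc1 (201) than any had Psmd8. The lowest were Psmd9, a base chaperone (3.92 ± 0.185 FPKM), Psmg3 (1.20 ± 0.216 FPKM) and Psmb11. Psmb11, the catalytic subunit of the thymus, had 0 to 6 reads per library and was the only member below the filter of a mean of 0.5 FPKM, so that 49 of 50 members were tested. Among the 17 core subunits other than Psmb11 and Psma8, a testis form measured at 5.96, 5.24 and 5.03 FPKM, the levels spread over an SD of 1.24 ± 0.01 on the log2 scale (SD, n = 3). This spread was 1.26 ± 0.04 in SFRP2 siRNA and 1.19 ± 0.03 in RAB6A siRNA. These 17 include the 3 immunoproteasome subunits as well as those they replace. FPKM divides by the length of the annotated exons, so that the order and spread of levels between genes also depend on annotation. The median SD between replicates was 3.52% of the mean in NC, 4.87% in SFRP2 siRNA and 6.72% in RAB6A siRNA.

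**Figure D1:**
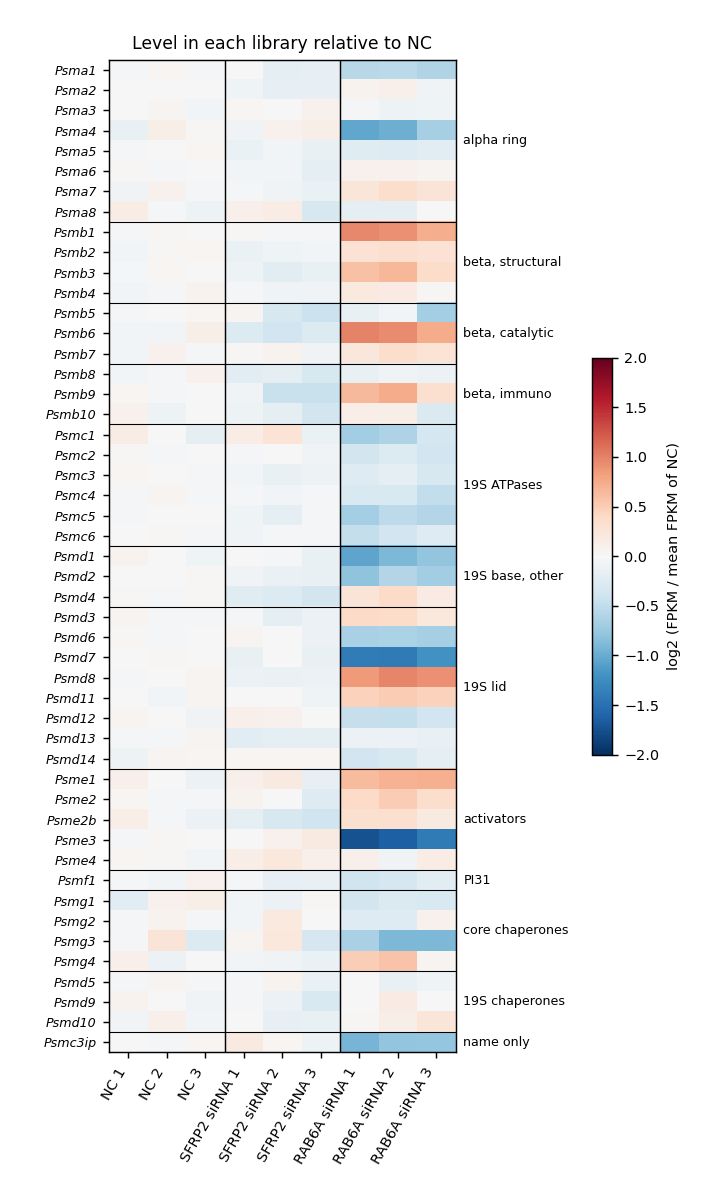
Level of each of the 49 tested members in each of the 9 libraries (columns), as log2 of the FPKM over the mean FPKM of NC, with rows ordered by role. The columns of RAB6A siRNA are blue for the 19S ATPases, Psmd7 and Psme3 and red for Psmb1, Psmb6 and Psmd8, while the columns of SFRP2 siRNA stay close to NC.

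With RAB6A siRNA proteasome genes moved in both directions. The 6 ATPases of the 19S base fell, as did the large base subunits Psmd1 and Psmd2 and the lid subunit Psmd7. Of 10 core beta genes tested 6 rose, with Psmb6 and Psmb1 about as far as the lid subunit Psmd8. PA28 gamma (Psme3) fell to 0.332 times its NC level, while PA28 alpha and beta rose. Of 49 members tested, 15 were higher (30.6%) and 20 lower (40.8%) at an adjusted p under 0.05, and 14 were not called. Over all 12712 genes tested, 37.6% were called higher and 36.5% lower, so that the shares of members lay near the background. The median log2 fold change was -0.11 for the members and 0.03 for all genes. Fold changes are on the scale of log2(FPKM + 0.1), given ± SE, and were tested with limma, with p adjusted over all genes tested. Members with a log2 fold change beyond 1 were Psme3 and Psmd7, both lower (4.08% of members, against 12.8% of all genes), and no member was higher by as much, against 17.3% of all genes. The 3 libraries of a group stood apart from those of NC in 15 members toward higher and 23 toward lower values, against 39.2% and 38.2% of all genes. In these bulk samples, fewer cells of a type and less RNA per cell cannot be told apart.

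Rescaling FPKM to a fixed sum (TPM) moved the median of all genes from 0.03 to -0.12, and then 10 members were higher and 26 lower. With quantile normalization 18 were higher and 17 lower. With a correction for GC content and exon length 19 were higher and 20 lower, and with voom on the recovered reads 15 and 21. The numbers over all genes moved as well. Of 12712, TPM called 4051 higher and 5368 lower, and quantile normalization 4475 and 4869. Of 12535, the GC correction called 5215 higher and 4225 lower, and voom 4775 and 4727. Of the 35 members called, 33 kept their direction under all 18 alternatives, or for Psmg3 the 17 in which it was tested. The exceptions were Psme2b and Psmg4, which turned lower under the GC correction. Of the 35, 24 were called under every alternative in which they were tested, Psmg3 again under 17. The median GC content was 52.0% in the members called higher and 48.7% in those called lower, and its part in the result was tested only by that correction. In the same comparison the macrophage genes Lyz2 (-2.03 ± 0.09), Csf1r (-1.44 ± 0.09) and Spi1 (-1.05 ± 0.08) fell on the log2 scale, Ptprc rose (0.17 ± 0.06), and Adgre1, Itgam, Cd14 and Cd68 were not called. Their part in the result was not tested.

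**Figure D2:**
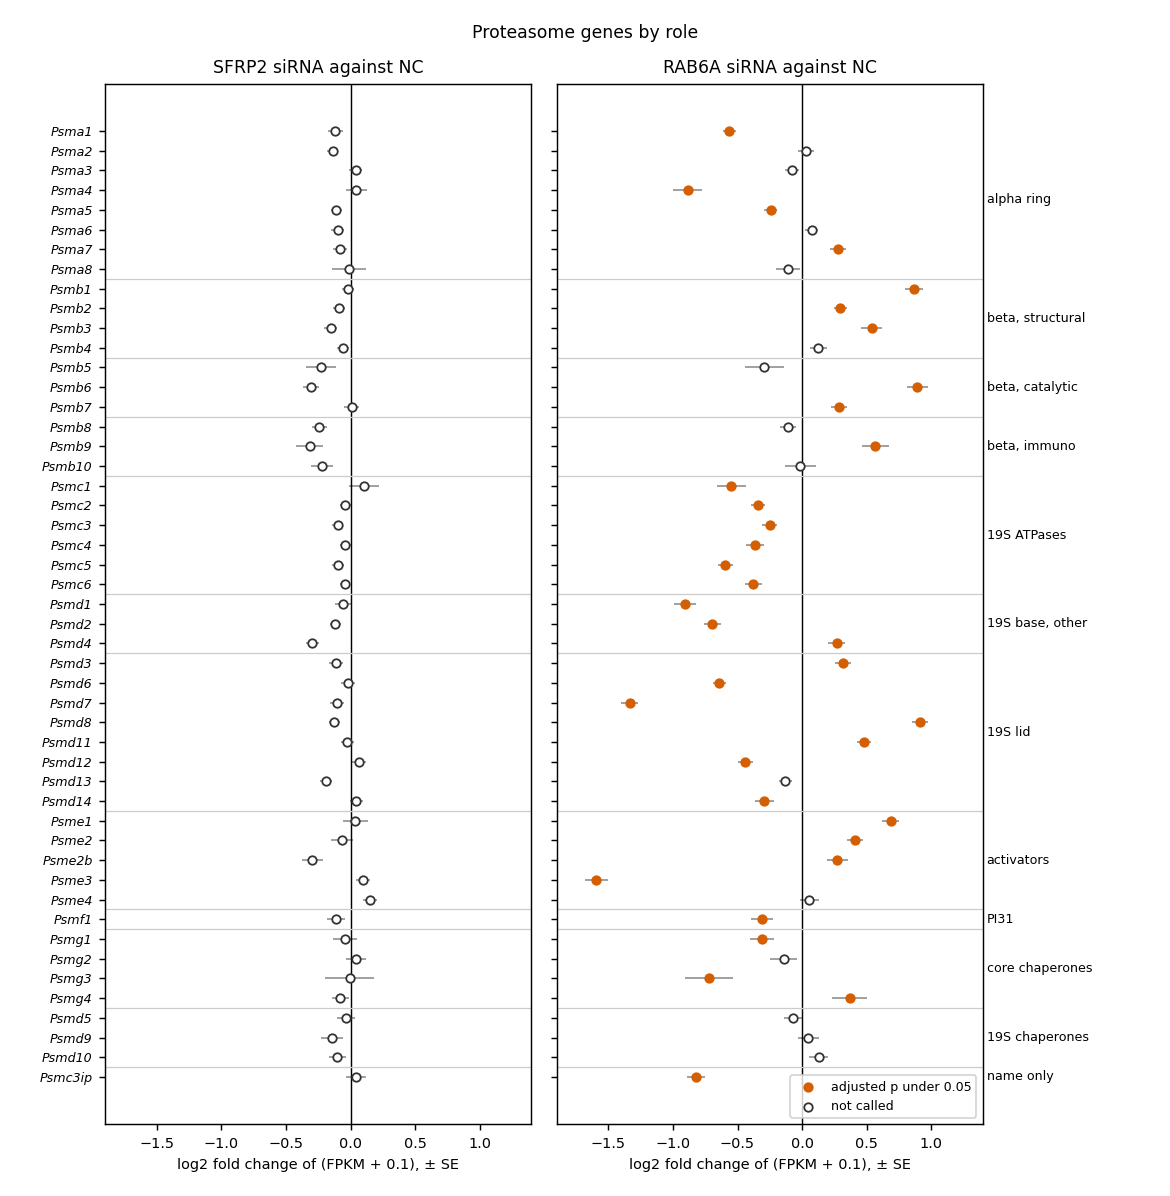
Log2 fold change of FPKM + 0.1 with its standard error (bars) for the 49 members, ordered by role, with SFRP2 siRNA against NC on the left and RAB6A siRNA against NC on the right. Filled points have an adjusted p under 0.05 (limma). None is filled on the left, and on the right 15 are filled to the right of 0 and 20 to the left.

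The ATPases of the base, Psmc1 to Psmc6, form the ring that pulls substrates into the core. All 6 fell with RAB6A siRNA, by 0.25 to 0.59 on the log2 scale (median -0.37), and in each of the 6 the RAB6A siRNA libraries lay below all NC libraries. Over all genes, 36.5% were called lower and 38.2% lay apart toward lower values. Psmc5 fell most, from 96.5, 98.4 and 98.6 FPKM in NC to 61.2, 67.9 and 65.4 (log2 fold change -0.59 ± 0.06, adjusted p = 5.34e-05). Psmc4 went from 36.9, 39.4 and 37.5 to 30.7, 30.8 and 27.0 FPKM (-0.36 ± 0.07, adjusted p = 0.00189). Psmc3 had the smallest change, from 62.3, 60.2 and 59.4 to 50.6, 53.6 and 48.7 (-0.25 ± 0.06, adjusted p = 0.00467). Psmc1 varied more between NC libraries (201, 184 and 161) and was 112, 119 and 142 in RAB6A siRNA (-0.55 ± 0.11, adjusted p = 0.00302), and 14.1% of its 50-base windows occur in transcripts of other genes. The summed level of the ATPases was 430 to 472 FPKM in NC, 428 to 472 in SFRP2 siRNA and 309 to 344 in RAB6A siRNA. All 6 were also called lower with TPM, median-of-ratios scaling and voom. Psmc3 was not called with quantile normalization (-0.12), nor Psmc2 with the GC correction (-0.02), and both kept their sign.

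The large base subunits Psmd1 and Psmd2 hold the base together and bind ubiquitin receptors and shuttles. Psmd1 went from 28.5, 27.4 and 25.4 to 13.1, 14.6 and 15.7 FPKM, a log2 fold change of -0.91 ± 0.08 (adjusted p = 4.04e-05). Psmd2 went from 78.7, 78.7 and 81.0 to 45.3, 53.0 and 48.9 (-0.70 ± 0.07, adjusted p = 5.65e-05). Psmd4, the ubiquitin receptor Rpn10 between base and lid, moved the other way, from 57.1, 54.9 and 57.0 to 67.4, 73.4 and 63.2 (0.27 ± 0.07, adjusted p = 0.00758), and was not called with TPM (0.12). In the base as a whole, 8 of 9 genes were thus called lower (88.9%, against 36.5% of all genes) and 1 higher (11.1%, against 37.6%).

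The lid was divided. Of its 8 genes, Psmd6, Psmd7, Psmd12 and Psmd14 fell, Psmd3, Psmd8 and Psmd11 rose, and Psmd13 was not called (-0.13 ± 0.05, adjusted p = 0.0508). The shares were 50% lower and 37.5% higher, against 36.5% and 37.6% of all genes. Psmd7 (chromosome 8, 107580381 to 107588464, minus strand), the partner of the deubiquitinase Psmd14, went from 62.5, 63.7 and 62.3 FPKM to 23.9, 23.6 and 27.1. This was a log2 fold change of -1.34 ± 0.07 (adjusted p = 2.97e-06), and the highest RAB6A siRNA library was below the lowest NC library. Psmd14 itself, which cuts ubiquitin chains from the substrate, went from 34.7, 38.7 and 38.0 to 28.4, 30.0 and 32.6 (-0.29 ± 0.07, adjusted p = 0.0073), and was not called with quantile normalization (-0.12) or the GC correction (-0.15). Psmd8 (chromosome 7, 29174188 to 29180701, minus strand), a structural lid subunit, went the opposite way, from 188, 192 and 199.9 to 349.5, 380.1 and 362 FPKM (0.91 ± 0.06, adjusted p = 9.49e-06). Its level in each RAB6A siRNA library was above all 6 others. Psmd12 fell (-0.44 ± 0.06), Psmd6 fell (-0.64 ± 0.05), and Psmd11 (0.48 ± 0.05) and Psmd3 (0.32 ± 0.07) rose. With Psmd8 as its most abundant gene, the summed level of the lid was higher in RAB6A siRNA (577 to 610 FPKM, against 463 to 474 in NC), while its median gene was at 34.6 to 37.4 FPKM against 37.1 to 38.0.

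In the alpha ring, whose subunits form the gate of the core, 3 of 8 genes fell, 1 rose and 4 were not called. The share called lower (37.5%) lay near that of all genes (36.5%), and the share called higher was 12.5% against 37.6%. Psma4, with 14.35% of its 50-base windows in transcripts of other genes, was at 115, 137 and 129 FPKM in NC and 61.7, 64.8 and 80.1 in RAB6A siRNA (-0.89 ± 0.11, adjusted p = 0.000222). Psma1 went from 47.0, 48.7 and 46.9 to 32.5, 32.7 and 31.4 (-0.56 ± 0.05, adjusted p = 3.68e-05). Both groups were apart in both genes. Psma5 fell by less (-0.24 ± 0.05), and 659 of its 1319 50-base windows are shared with transcripts of other genes. Psma7 rose (0.28 ± 0.06, adjusted p = 0.00465), but was not called with TPM (0.13). Psma6, the highest of the ring in FPKM, was at 162, 163 and 159 against 156, 151 and 152 FPKM (0.08 ± 0.05, adjusted p = 0.204), with a value below 0 under TPM, quantile normalization and the GC correction.

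In the beta rings 6 of 10 genes tested rose (60%, against 37.6% of all genes), none was called lower (against 36.5%) and 4 were not called. With TPM 5 were higher and 2, Psmb5 and Psmb8, lower. With the GC correction 6 were higher and 2, Psmb5 and Psmb10, lower, and with voom 6 were higher and 1, Psmb5, lower. Psmb6 (chromosome 11, 70525367 to 70527858, plus strand) carries the caspase-like site. It went from 75.7, 76.0 and 85.3 FPKM in NC to 157, 152 and 132 in RAB6A siRNA (0.89 ± 0.08, adjusted p = 4.87e-05). Psmb1, a structural subunit, went from 20.3, 20.99 and 20.7 to 40.2, 38.9 and 34.3 (0.87 ± 0.07, adjusted p = 2.30e-05). The groups were far apart in both genes, and the third RAB6A siRNA library was the lowest of its group in each. Psmb3 (0.54 ± 0.08), Psmb2 (0.30 ± 0.05, not called with the GC correction, 0.09) and Psmb7, the trypsin-like subunit (0.28 ± 0.06, not called with TPM, 0.14), rose by less. Psmb5, which carries the chymotrypsin-like site, was at 43.3, 45.0 and 45.7 in NC and 40.4, 42.9 and 27.8 in RAB6A siRNA (-0.29 ± 0.15, adjusted p = 0.116). The third RAB6A siRNA library was well below the others. Psmb5 was called lower with TPM (-0.44), the GC correction (-0.89) and voom (-0.28), and without RAB6A siRNA replicate 2 (-0.41). Of the 50-base windows of Psmb5, 54.1% occur in other transcripts, and of those of Psmb3 17.8%. The constitutive beta subunits summed to 370 to 397 FPKM in NC and 476 to 535 in RAB6A siRNA, while the constitutive alpha ring went from 504 to 530 down to 436 to 448.

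**Figure D3:**
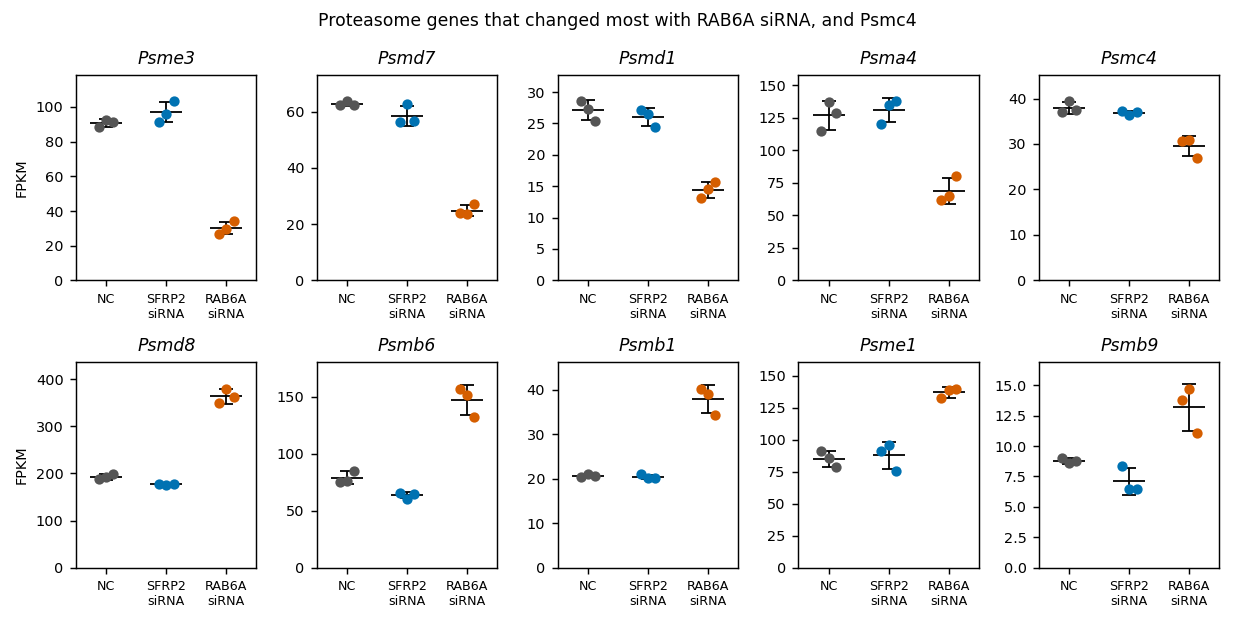
FPKM of 10 members in each library (points), with the mean and SD of each group of 3 libraries (black). Psme3, Psmd7, Psmd1, Psma4 and Psmc4 in the upper row were lower in all RAB6A siRNA libraries than in any NC library, and Psmd8, Psmb6, Psmb1, Psme1 and Psmb9 in the lower row were higher.

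The immunoproteasome subunits did not move as a group. Psmb9 (chromosome 17, 34181987 to 34187764, minus strand) rose with RAB6A siRNA from 9.06, 8.60 and 8.74 to 13.8, 14.7 and 11.04 FPKM (0.57 ± 0.11, adjusted p = 0.00187). Psmb8, its neighbour on chromosome 17 (34197721 to 34201454, plus strand), was at 11.2, 11.4 and 12.4 in NC and 10.47, 11.1 and 10.8 in RAB6A siRNA (-0.11 ± 0.06, adjusted p = 0.147). Psmb10 was at 54.7, 47.8 and 51.9 in NC and 56.5, 55.6 and 42.0 in RAB6A siRNA (-0.01 ± 0.12, adjusted p = 0.921), with 2 RAB6A siRNA libraries above and 1 below all NC libraries. Exons of Psmb9 overlap those of Tap1 on the other strand over 212 bases, 5.79% of its exon length, and whether reads were counted by strand is not stated. Each of these genes was set against the constitutive subunit it replaces, within a library. The ratio Psmb9/Psmb6 was 0.120, 0.113 and 0.102 in NC and 0.0878, 0.0971 and 0.0834 in RAB6A siRNA, a log2 difference of -0.32 (exact permutation, two-sided, p = 0.1, below which 3 against 3 libraries cannot go). Both genes rose, Psmb6 by more, and the groups did not overlap. The ratio Psmb10/Psmb7 was 2.24, 1.78 and 2.10 in NC and 1.90, 1.72 and 1.38 in RAB6A siRNA (-0.30, exact permutation p = 0.2). The ratio Psmb8/Psmb5 was 0.259, 0.254 and 0.271 in NC and 0.259, 0.258 and 0.388 in RAB6A siRNA (0.18, exact permutation p = 0.6), and without RAB6A siRNA replicate 3, which had the lowest Psmb5, the difference was -0.01. The 3 immunoproteasome subunits made up 31.4% to 34.3% of the FPKM of the 6 catalytic genes in NC, 31.2% to 33.4% in SFRP2 siRNA and 25.1% to 26.4% in RAB6A siRNA. Of the 6, Psmb6 changed most, from a mean of 79.0 FPKM in NC to 147 in RAB6A siRNA, so that the lower share is not in itself a fall of the 3. In NC, the FPKM of Psmb10 was about 2.04 times that of Psmb7, while Psmb8 and Psmb9 stood at 0.261 and 0.112 times Psmb5 and Psmb6. These ratios and the shares rest on annotated exon lengths, 899 bases in Psmb5 and 3381 in Psmb8, and are no ratios of mRNA molecules. In reads, Psmb8 had 1576, 1818 and 1779 in NC and Psmb5 1619, 1906 and 1747. Psmb10 had 3882, 3840 and 3763 and Psmb7 3481, 4323 and 3599. Psmb9 had 1379, 1484 and 1360, below Psmb6 at 5893, 6705 and 6790.

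The proteasome activators also moved in both directions. Psme3 (chromosome 11, 101316213 to 101323537, plus strand) went from 88.4, 92.5 and 91.5 FPKM in NC to 27.0, 29.4 and 34.0 in RAB6A siRNA, a log2 fold change of -1.59 ± 0.09 (adjusted p = 4.34e-06). Psme1 went from 91.0, 85.7 and 78.6 to 132, 138 and 139.8 (0.69 ± 0.07, adjusted p = 6.24e-05). Psme2 went from 62.4, 59.4 and 59.6 to 78.8, 85.6 and 77.0 (0.41 ± 0.06, adjusted p = 0.00048). Psme2b is a near copy of Psme2 and shares 69.3% of its 50-base windows with other transcripts, mainly those of Psme2, so that their reads may be split between them. Psme2b had a log2 fold change of 0.27 ± 0.08 (adjusted p = 0.0148), and was not called with TPM (0.13) or the GC correction (-0.12), without NC replicate 3 or without RAB6A siRNA replicate 2. Psme4, the nuclear activator PA200, was at 10.9, 9.66 and 11.2 against 10.4, 10.3 and 9.79 FPKM (0.06 ± 0.07, adjusted p = 0.51), and its value was below 0 under TPM. The ratio Psme1/Psme3 was 1.03, 0.927 and 0.860 in NC, 0.995, 0.998 and 0.735 in SFRP2 siRNA and 4.90, 4.71 and 4.11 in RAB6A siRNA, 4.87-fold higher in the last than in NC (exact permutation p = 0.1). The ratio Psme2/Psme3 was 0.706, 0.642 and 0.652 in NC, 0.696, 0.623 and 0.491 in SFRP2 siRNA and 2.92, 2.91 and 2.26 in RAB6A siRNA, 4.02-fold higher than in NC (exact permutation p = 0.1). In FPKM, which depends on annotated exon length, PA28 gamma was thus about level with PA28 alpha in NC. PA28 gamma was below both partners in every RAB6A siRNA library. Over the 10 ratio comparisons the smallest adjusted p was 0.333.

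**Figure D4:**
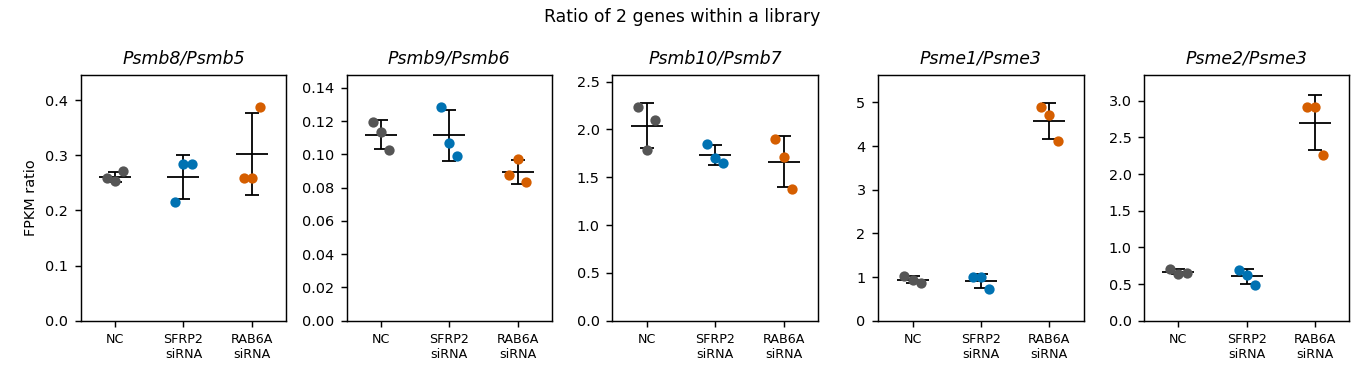
Ratio of the FPKM of 2 genes within each library (points), with the mean and SD of each group of 3 libraries (black). Psme1/Psme3 was 0.860 to 1.03 in NC and 4.11 to 4.90 in RAB6A siRNA, while for Psmb8/Psmb5 and Psmb10/Psmb7 the points of the groups overlap.

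Of the assembly chaperones of the core, Psmg1 (-0.31 ± 0.09) and Psmg3 (-0.72 ± 0.18) fell and Psmg4 rose (0.37 ± 0.13, adjusted p = 0.0376). Psmg4 overlapped between the groups, lost its call when any library other than NC replicate 1 or RAB6A siRNA replicate 3 was left out, and had -0.39 under the GC correction. Psmg1 lost its call with quantile normalization (-0.19) and without NC replicate 2, NC replicate 3 or RAB6A siRNA replicate 1. Psmg3 rested on 61 to 80 reads in the RAB6A siRNA libraries and 122 to 194 in NC. The base chaperones Psmd5, Psmd9 and Psmd10 were not called, with log2 fold changes of -0.07 ± 0.07, 0.05 ± 0.08 and 0.13 ± 0.08. Psmf1 fell (-0.31 ± 0.08, adjusted p = 0.0104), but was at -0.01 under the GC correction. Psmc3ip, no subunit, fell from 7.63, 7.44 and 7.81 to 3.995, 4.41 and 4.45 FPKM (-0.82 ± 0.07, adjusted p = 2.96e-05).

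Between RAB6A siRNA and the libraries labelled SFRP2 siRNA, 19 members were higher and 19 lower (38.8% each), against 37.6% and 35.8% of all 12764 genes tested. This comparison shares its RAB6A siRNA libraries with the one against NC. All 6 ATPases were lower, by 0.15 to 0.65 on the log2 scale, but with the GC correction 4 were below 0 and 4 called, and with quantile normalization and with voom 5 were called. Psme3 differed by -1.69 and Psmd7 by -1.23, while Psmb6 (1.20) and Psmd8 (1.04) were higher by more than 1 on the log2 scale. Psmb4 was called higher here (0.18 ± 0.06, adjusted p = 0.0295) and not against NC (0.13 ± 0.07, adjusted p = 0.122). Whether these 2 values differ was not tested.

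In the libraries labelled SFRP2 siRNA, proteasome genes stayed close to NC, and most differences were small and toward lower values. At an adjusted p under 0.05 limma called none of the 49 members, as it called 0% of all 12017 genes tested. At an unadjusted p under 0.05, 12 members were lower (24.5%, against 10.7% of all genes) and 1 higher (2.04%, against 7.73%). The groups did not overlap in 15 members toward lower values (30.6%, against 13.9% of all genes) and in 1 toward higher values (10.9% of all genes). The median log2 fold change was -0.08 for the members and -0.01 for all genes. With quantile normalization 9 members were lower and 3 higher at an unadjusted p under 0.05, with a median of -0.04, and with TPM 10 were lower. The members lay at a higher level than most genes (median 36.6 FPKM in NC), and the shares of all genes were not matched for level. Without SFRP2 siRNA replicate 2, 7 members were lower at an unadjusted p under 0.05, as were 878 of all 12000 genes. With voom, 1 member, Psmd4, was called (adjusted p = 0.0442), and of all 11903 genes 7 were called higher and 35 lower. The study, whose methods name a model for counts, reported genes called in both directions for SFRP2 siRNA in RAW264.7 cells.

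Psmd4, the ubiquitin receptor, had the smallest p of the members, with 57.1, 54.9 and 57.0 FPKM in NC and 47.5, 46.6 and 43.6 in the libraries labelled SFRP2 siRNA (log2 fold change -0.30 ± 0.05, adjusted p = 0.163, limma). Psmb6 was at 75.7, 76.0 and 85.3 in NC and 65.3, 60.6 and 65.1 in these libraries (-0.31 ± 0.06, adjusted p = 0.165). Psmd13, a lid subunit, was at 25.6, 25.9 and 27.1 in NC and 22.3, 23.2 and 23.2 in these libraries (-0.19 ± 0.05, adjusted p = 0.178). The groups did not overlap in these 3 genes. All 3 immunoproteasome subunits were lower at an unadjusted p under 0.05, as were 10.7% of all genes. With the GC correction Psmb8 was at -0.14, Psmb9 at -0.22 and Psmb10 at -0.09. Of the 10 core beta genes tested, 5 were lower at an unadjusted p under 0.05, but 2 with that correction. Psmb8 was at 10.0, 10.2 and 9.36 FPKM against 11.2, 11.4 and 12.4 (-0.24 ± 0.06, adjusted p = 0.178), and Psmb9 at 8.40, 6.46 and 6.44 against 9.06, 8.60 and 8.74 (-0.32 ± 0.11, adjusted p = 0.208). Psmb10 was at 47.8, 45.1 and 39.7 against 54.7, 47.8 and 51.9 (-0.22 ± 0.08, adjusted p = 0.232), and the groups overlapped only slightly. None of these passed adjustment. The ratio to the constitutive partner differed by -0.01 for Psmb8/Psmb5 and Psmb9/Psmb6 on the log2 scale (exact permutation p = 1 for each) and by -0.23 for Psmb10/Psmb7 (exact permutation p = 0.2).

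Among values above NC, Psme4 was at 11.1, 11.8 and 10.96 against 10.4, 10.3 and 9.79 FPKM (0.15 ± 0.05, adjusted p = 0.228). Psme3 (0.09 ± 0.05, adjusted p = 0.386) and Psmd12 (0.06 ± 0.05, adjusted p = 0.524) followed and overlapped with NC. Psme1 (0.04 ± 0.10) and Psme2 (-0.06 ± 0.08) lay within the spread of the replicates. The 6 ATPases, which fell with RAB6A siRNA, were between -0.10 and 0.10, with no unadjusted p under 0.05. With the GC correction 2 of them were lower at an unadjusted p under 0.05, and Psmc6 was at -0.16. Of the 8 macrophage markers, Adgre1 (-0.23 ± 0.04), Cd68 (-0.21 ± 0.06) and Spi1 (-0.19 ± 0.06) had an unadjusted p under 0.05, and these 3 and Cd14 (-0.15 ± 0.07) lay below all NC libraries. Among all genes tested, 10.7% were lower at an unadjusted p under 0.05 and 13.9% lay apart toward lower values. Csf1r (-0.10 ± 0.09), Lyz2 (-0.08 ± 0.08), Itgam (0.14 ± 0.07) and Ptprc (0.04 ± 0.05) overlapped with NC, and none of the 8 passed adjustment. Their part in the result was not tested.

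Genes that work with the proteasome were read from 7 lists of 56 genes, all tested. With RAB6A siRNA 17 were higher (30.4%) and 26 lower (46.4%), with a median of -0.15, against 37.6% and 36.5% of all genes. Of 9 shuttles and segregase genes, which bring tagged proteins to the 19S particle, 6 fell and 2 rose. Rad23b, a shuttle, went from 139, 144 and 138 to 55.9, 62.2 and 71.6 (-1.15 ± 0.09, adjusted p = 2.01e-05), and Ubqln2, another, from 8.65, 8.09 and 9.16 to 3.83, 3.65 and 4.72 (-1.07 ± 0.11, adjusted p = 6.58e-05). Of 9 peptidases that trim or destroy the peptides released, 6 fell and 1 rose, with Erap1, which trims peptides in the endoplasmic reticulum, at -1.23 ± 0.11 and Thop1 at -1.01 ± 0.06.

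Of 5 genes listed for the control of proteasome genes, 3 rose (60%, against 37.6% of all genes) and 1 fell (20%, against 36.5%). Nfe2l1, the factor that raises proteasome genes when the proteasome is impaired, fell slightly (49.1, 49.9 and 50.8 to 43.3, 47.3 and 45.3 FPKM, -0.14 ± 0.05, adjusted p = 0.0465). Nfe2l2 (NRF2) rose (12.0, 11.6 and 11.4 to 15.1, 14.9 and 15.5, 0.38 ± 0.05, adjusted p = 0.000439). Ngly1, which removes sugars from Nfe2l1, was low and rose from 0.919, 0.817 and 0.965 to 1.90, 1.96 and 1.79 (0.99 ± 0.12), and Akirin2, which takes proteasomes into the nucleus, rose (0.40 ± 0.09). Of 8 assembly and associated proteins, 3 rose (37.5%, near the share of all genes) and 4 fell (50%). Pomp, which matures the core, rose from 26.6, 28.7 and 26.6 to 34.8, 34.0 and 34.4 (0.33 ± 0.05, adjusted p = 0.000833), as did Sem1, a small lid subunit whose symbol lies outside the rule (32.5, 33.3 and 33.9 to 55.5, 51.7 and 49.7, 0.65 ± 0.06, adjusted p = 4.04e-05). Ube3c, a ubiquitin ligase bound to the proteasome, fell from 9.504, 8.44 and 8.09 to 2.97, 3.06 and 3.11 (-1.48 ± 0.08, adjusted p = 4.18e-06).

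Of 10 interferon factors that act on immunoproteasome genes, 5 fell (50%, against 36.5% of all genes) and 1 rose (10%, against 37.6%). Irf1, which drives Psmb8, Psmb9 and Psmb10, went from 31.3, 31.7 and 31.0 to 15.1, 14.9 and 14.1 FPKM (-1.09 ± 0.05, adjusted p = 2.88e-06), and Irf9 fell (-0.67 ± 0.06). In the libraries labelled SFRP2 siRNA Irf1 was at 26.8, 25.0 and 24.3 (-0.31 ± 0.05, adjusted p = 0.163). Of 8 genes of peptide loading on MHC class I, 2 rose (25%) and 3 fell (37.5%, near the share of all genes). B2m, the light chain of MHC class I, went from 3466, 4044 and 4012 to 8314, 8040 and 7419 FPKM (1.05 ± 0.11, adjusted p = 0.000108), and Tapbpl, a peptide editor, fell (-0.77 ± 0.07). With SFRP2 siRNA none of the 56 genes had an adjusted p under 0.05 (limma), while 6 were higher (10.7%, against 7.73% of all genes) and 11 lower (19.6%, against 10.7%) at an unadjusted p under 0.05.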

How the data were processed

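RNA sequencing of 9 libraries was deposited as a gene table of FPKM values, which the authors computed from read counts. The labels name HISAT2, featureCounts and Subread. The genome build and annotation are not given in the sources used here. GENCODE M21 named 27533 of 28137 rows, and with its exon lengths 98.4% of named genes gave whole reads in all libraries (tolerance 0.03 reads), from which depth was taken. Counting error and depth (32758729 to 47149258 reads) limit Psmg3 and Psmb11 most.

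Each pair of groups was compared with limma 3.58.1 (R 4.3.3, eBayes with trend) on log2(FPKM + 0.1), over genes with a mean of at least 0.5 FPKM in the 6 libraries compared, with Benjamini-Hochberg adjustment over all genes tested. The script was tested on simulated data. Ratios were compared by exact two-sided permutation (scipy 1.17.1). The study's methods name a model for counts, in place of which limma was used. Members were called at an adjusted p under 0.05 alone, and the study's further threshold, an absolute log2 fold change over 1, was applied only where stated. Alternatives were other pseudocounts (1 and 0.01), filters, scalings, a GC and length correction, voom on recovered reads, a replicate block and each library left out.

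Genes named by rule were the catalytic pairs and activators, the 5 largest called changes in each direction (or the 3 smallest p), the 3 highest and 3 lowest levels, members below the filter, and, per list of partner genes, the 2 largest changes with Nfe2l1, Nfe2l2 and Pomp. The genes of 1 partner list are not reported here. Other members were named to describe each role in full, after their values were seen. The members and lists were chosen with earlier results of these data known. Promoter sequences are from RefSeq (GRCm38.p6), where 42 of 50 members had a window.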

Additional observations from a re-analysis of the deposited data

How the results depend on the processing

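Over all alternatives, 10 to 19 members were higher and 17 to 26 lower in RAB6A siRNA against NC, 5 to 6 ATPases were lower, and against SFRP2 siRNA 13 to 21 members were higher and 16 to 23 lower. The lowest numbers of higher members, 10 and 13, came with TPM, which also called the fewest of all genes higher, 4051 and 4032. At an unadjusted p under 0.05, SFRP2 siRNA against NC gave 1 member higher, but 3 with quantile normalization, 0 with all 9 libraries in 1 fit and 0 with the GC correction, and 0 to 2 with single libraries left out (0 without NC replicate 2 or 3 or SFRP2 siRNA replicate 2, and 2 without SFRP2 siRNA replicate 1). It gave 12 lower, but 9 with quantile normalization and 10 with TPM, and 7 to 15 with single libraries left out (7 without SFRP2 siRNA replicate 2). Over all genes, 784 to 1500 were lower with single libraries left out. Voom called 1 lower at an adjusted p under 0.05, and 35 of all 11903 genes. The cause was not tested. The spread among core subunits was 1.39 in NC, 1.398 in SFRP2 siRNA and 1.37 in RAB6A siRNA with Psma8 included.

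Same-numbered libraries did not deviate together (r from -0.08 to 0.05). The labels do not say whether the numbers pair them, and these correlations cannot settle it with 3 libraries per group. With the replicate block 15 members were higher and 20 lower with RAB6A siRNA, 18 and 17 against SFRP2 siRNA, and for SFRP2 siRNA against NC 0 were called, with 15 lower at an unadjusted p under 0.05. Over all genes, the block called 4649 higher and 4454 lower of 12712 with RAB6A siRNA, and 4722 and 4437 of 12764 against SFRP2 siRNA. For SFRP2 siRNA against NC, 1580 of 12017 were lower at an unadjusted p under 0.05.

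Small values changed sign. With a pseudocount of 1, Psmb8/Psmb5 (0.0022) and Psmb9/Psmb6 (0.022) did so for SFRP2 siRNA against NC. With single libraries left out, the ratios ranged from -0.080 to 0.12 (Psmb8/Psmb5), -0.12 to 0.070 (Psmb9/Psmb6) and -0.13 to 0.090 (Psme1/Psme3), and Psmb8/Psmb5 for RAB6A siRNA from -0.012 to 0.28. For SFRP2 siRNA against NC the log2 fold changes ranged from -0.019 to 0.050 (Psmb7), -0.032 to 0.14 (Psme1), -0.13 to 0.030 (Psme2), -0.025 to 0.10 (Psma4), -0.027 to 0.11 (Psmc3ip) and -0.12 to 0.14 (Psmg3). Psmb7 was -0.073 with the GC correction, and Psmg3 0.076, or 0.0067 with median-of-ratios scaling. For RAB6A siRNA against NC they ranged from -0.090 to 0.12 (Psmb10) and -0.011 to 0.083 (Psmd9). With TPM, Psme4 was -0.088, Psma6 -0.070 and Psmd9 -0.095. With quantile normalization, Psma6 was -0.12 and Psmb10 0.12. With the GC correction, Psma6 was -0.098, Psmb8 0.060 and Psmd13 0.16. None of these was called in the comparisons as reported.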
